A study of Homo sapiens with 4 samples.

Results

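HOXB13 peaks in 7 olfactory receptor gene clusters of the human genome were described from 2 peak lists of the prostate cancer cell line LNCaP. The members were all peaks whose summit, the position of highest signal, lay inside fixed boundaries on the hg19 build. The boundaries enclosed 6.78 Mb on 5 chromosomes. They were not set from peak values, but the clusters were chosen with earlier results of these data known. The clusters held 146 of the 68725 deposited peaks in the list labelled GSK2879552 and 7 of the 3722 in the list labelled vehicle.

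LNCaP is an established, androgen-sensitive line of prostate cancer cells. HOXB13-bound DNA was collected by chromatin immunoprecipitation and sequenced. Cells were grown in RPMI1640 medium with 5% CSS and, for the treated group, exposed for 4 hours to 50 µM GSK2879552, which inhibits LSD1, an enzyme that removes methyl groups from histones. The protocol text names the inhibitor for the vehicle samples as well, so the vehicle group rests on titles and descriptions. Each treatment was 1 library run on 2 lanes, technical replicates by their labels, and 1 list stands for both lanes. No value below therefore has an error between cultures, intervals cover counting error only, and no comparison between the treatments was tested.

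Olfactory receptors are odorant-binding G protein-coupled receptors and form the largest gene family of mammals. Their genes lie in tandem clusters. An olfactory neuron expresses a single receptor allele, while the others are kept in compacted chromatin, and LSD1 is known for its role in starting that choice. The homeobox protein HOXB13 marks the prostate lineage and binds DNA at many sites together with the androgen receptor. Most olfactory receptors are not expressed in prostate, but OR51E2, also called PSGR, and OR51E1, also called PSGR2, were both named for their expression in prostate and prostate cancer. The description of these clusters as silent in prostate thus does not cover all of their genes, and expression was not measured here.

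The clusters are named here by chromosome. On chromosome 11 they were a short-arm cluster from 4300001 to 6250000, a pericentromeric cluster from 55000001 to 56600000 and a distal long-arm cluster from 123600001 to 124450000. The others lay on chromosome 1 from 247600001 to 248800000, on chromosome 14 from 20200001 to 20700000, on chromosome 9 from 107250001 to 107480000 and on chromosome 7 from 143600001 to 144050000. No gene annotation of hg19 was used, so peaks are given by position and not assigned to genes. In the RefSeq gene order of GRCh38.p14, OR51E1 and OR51E2 stand in the run of neighbouring receptor genes from OR55B1P to OR52W1. It holds 103 receptor genes and pseudogenes, 55 of them coding, with 41 other genes between them. A peak inside a cluster therefore need not lie at a receptor gene. This run holds the class I receptors of the short arm of chromosome 11, an older branch of the family. Near OR51E2 the order is TRIM68, OR51D1, OR51E1, OR51A9P, a long noncoding RNA gene, OR51E2, OR51C1 and MMP26, the last a metalloproteinase gene.

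Promoters of olfactory receptor genes differ from most human promoters in their base composition. Of the 296 coding receptor genes on the 5 chromosomes, 236 had a RefSeq promoter of 300 bases, 250 before and 50 after the start of the gene, and 244 promoters of receptor genes of any kind were read. These promoters were taken from the whole of the 5 chromosomes, not only from the clusters. Their median GC content was 37.3% (quartiles 33.6 and 42.2) and their median number of CpG dinucleotides was 1. The 35116 promoters of all genes had medians of 58.7% and 14. The 8-base sequence CCAATAAA, or TTTATTGG on the other strand, which HOXB13 is known to bind, was in 4 receptor promoters (1.64%) and in 0.934% of all promoters. The other 8-base form, CTCGTAAA or TTTACGAG, was in 0 receptor promoters and in 0.137% of all. The shorter core AATAAA or TTTATT, which is contained in the first form, was in 116 receptor promoters (47.5%) and in 17.4% of all. These are matches of letters, and the groups differ in base composition.

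The promoter of OR51E1 is shown because OR51E1 is a prostate-expressed receptor and belongs to the cluster with the tallest peaks below. It lies at chr11:4643732-4644031 on the plus strand of GRCh38.p14, coordinates that cannot be set beside the hg19 positions of the peaks. The capitals mark its single match to the core, which starts at base 166 of the 300. Its GC content was 57%, and only 2 of the 244 receptor promoters, itself included, had at least that much. It held 3 CpG dinucleotides. Whether a HOXB13 peak lies on it was not determined.
OR51E1: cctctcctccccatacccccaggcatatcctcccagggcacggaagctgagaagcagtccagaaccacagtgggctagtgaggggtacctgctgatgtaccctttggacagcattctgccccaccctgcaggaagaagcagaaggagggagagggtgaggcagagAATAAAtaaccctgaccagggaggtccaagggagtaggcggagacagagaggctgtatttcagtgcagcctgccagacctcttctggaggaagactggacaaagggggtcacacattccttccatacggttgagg

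Over the clusters together, HOXB13 peaks were slightly sparser than on the rest of the same chromosomes. The GSK2879552 list had 146 peaks where the densities of the rest of each chromosome would give 174.6, a ratio of 0.836 (exact 95% Poisson interval 0.706 to 0.983). This is 21.5 peaks per Mb. The vehicle list had 7 peaks against 9.76, a ratio of 0.717 (0.288 to 1.48), so a difference was not detectable at that number of peaks. The short-arm cluster of chromosome 11 held 6 of these 7. Without it the vehicle list had 1 peak against 6.80, a ratio of 0.147 (0.00372 to 0.819). Without any other single cluster the vehicle interval held 1. Single clusters moved the GSK2879552 ratio: it was 0.955 (0.802 to 1.13) on 136 peaks without the chromosome 1 cluster and 0.756 (0.628 to 0.902) on 123 peaks without the chromosome 7 cluster. The interval also reached past 1 without the pericentromeric cluster, at 0.847 (0.699 to 1.02), and without the distal long-arm cluster, at 0.848 (0.708 to 1.01). Peaks that lie near each other are not independent, so these intervals leave out part of the variation along a chromosome. The clusters differed far more among themselves than together from their surroundings, and they are therefore described singly.

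**Figure D1:**
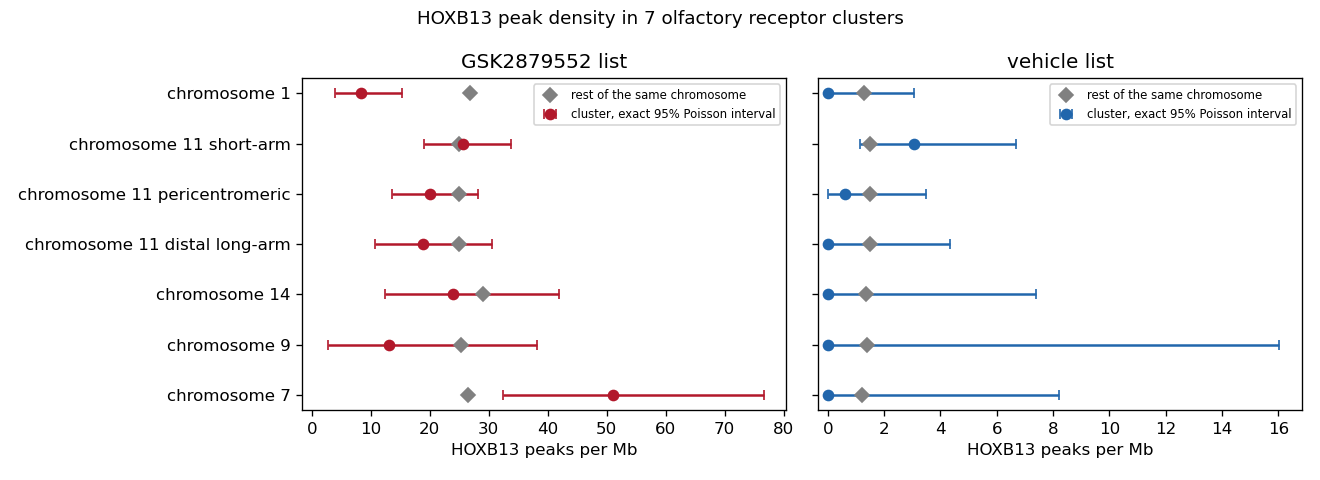
HOXB13 peaks per Mb (horizontal axis) in each cluster (circles, with exact 95% Poisson intervals) and on the rest of the same chromosome (grey diamonds), for the GSK2879552 list on the left and the vehicle list on the right. In the GSK2879552 list the chromosome 1 cluster lies at 8.33 against 26.9 per Mb and the chromosome 7 cluster at 51.1 against 26.5, while in the vehicle list 5 clusters have 0 peaks.

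The chromosome 1 cluster, at the end of the long arm, was the sparse extreme when all peaks were counted. It held 10 GSK2879552 peaks in 1.2 Mb, or 8.33 per Mb (4.00 to 15.3), against 26.9 per Mb on the rest of the chromosome, a ratio of 0.310 (exact conditional 95% interval 0.149 to 0.571). Among 188 windows of the same length along the chromosome, 7 held 10 peaks or fewer, and the median window held 34. The megabase just below the cluster held 31 peaks and the 0.441 Mb above it, up to the last peak of the chromosome, held 6. Inside the cluster the longest stretch without a summit ran from 247843638 to 248188334, or 345 kb, and 5 of 12 bins of 100 kb were empty. The strength of the peaks present could not be told apart from that of others on the chromosome. Their median fold enrichment was 4.82 (range 3.16 to 5.80), with an exact 95% interval of 3.71 to 5.71. This interval held the 4.22 of the rest of the chromosome. The fold enrichment is the authors' ratio of the pileup, the number of overlapping sequenced tags at the summit, to a local background, with 1 tag added to each. Pileup and background were recovered from the deposited fold enrichment and p-value. The strongest, at 247611258 to 247611472, reached 5.80, or 21 tags over a local background of 2.79. The widest, at 248642173 to 248642614, had 442 bp and 5.65, and the weakest, at 248188270 to 248188429, had 3.16 and 11 tags. At a fold enrichment of at least 5 the density ratio of the cluster was 0.619, on 5 peaks. At that threshold the distal long-arm cluster, at 0.169 on 1 peak, and the chromosome 14 cluster, at 0.555 on 2, were sparser.

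The chromosome 7 cluster was the dense extreme, but its peaks were low and its background was raised. It held 23 GSK2879552 peaks in 0.45 Mb, or 51.1 per Mb (32.4 to 76.7), against 26.5 on the rest of the chromosome, a ratio of 1.93 (1.22 to 2.90). Of 344 windows of that length, 20 held as many or more. The median fold enrichment was 3.61 (range 2.56 to 6.05) against 4.22 on the rest of the chromosome. The local background had a median of 1.79 times the genome-wide one, against 1.25 on the rest of the chromosome. The excess lay at the upper end of the cluster. In its last 150 kb lay 13 peaks, 86.7 per Mb, with local backgrounds of 1.64 to 2.69 times the genome-wide value and no fold enrichment above 4.47. The lower 300 kb held 10 peaks, 33.3 per Mb, with a ratio to the rest of the chromosome of 1.26 (0.603 to 2.32). All 3 peaks of the cluster with a fold enrichment of at least 5 lay in this lower stretch, and the highest was at 143814250 to 143814499 with 6.05 and 25 tags over 3.29. At that threshold the density ratio of the cluster was 0.981, below 1. The widest peak, at 143664622 to 143665078, had 457 bp and 3.73, and the weakest, at 143958177 to 143958347, had 2.56. The part of the raised background in the peak number was not tested.

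**Figure D2:**
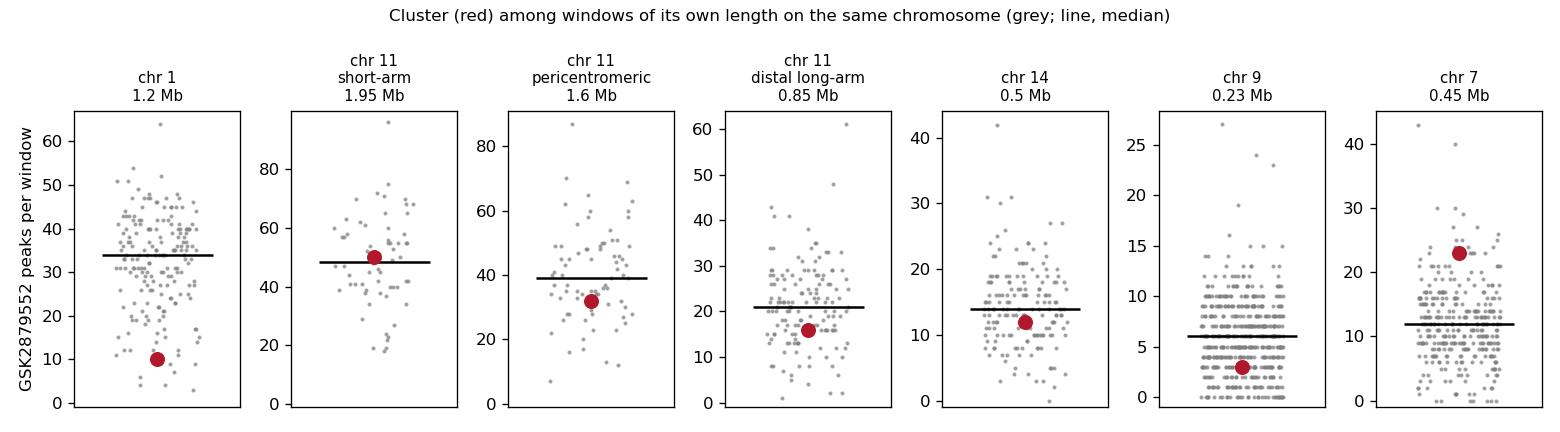
Number of GSK2879552 peaks (vertical axis) in each cluster (red circle) and in consecutive windows of the same length on the rest of its chromosome (grey points, spread sideways at random; black line, median). The chromosome 1 cluster, with 10 peaks, lies near the bottom of its 188 windows, the chromosome 7 cluster, with 23, near the top of its 344, and the other 5 inside the bulk of theirs.

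The short-arm cluster of chromosome 11, home of the class I receptors, had the density of its chromosome and the tallest peaks of all clusters. Its 50 GSK2879552 peaks came to 25.6 per Mb (19 to 33.8) against 25 on the rest of the chromosome, a ratio of 1.02 (0.759 to 1.35). Of 62 windows of the same length, 33 held 50 peaks or fewer. This average joined a dense stretch and a sparser remainder. From 4.6 to 4.9 Mb, 300 kb that made up 15.4% of the cluster, lay 22 of the 50 peaks, a share of 44% (exact 95% binomial interval 30.0 to 58.7) and 73.3 per Mb. On the rest of chromosome 11, 3 of 421 windows of 300 kb held 22 or more, the median was 7 and the highest 25. The stretch was picked because it is dense, so these values describe it and test nothing. Outside it the cluster had 28 peaks in 1.65 Mb, 17.0 per Mb, and a ratio of 0.678 (0.450 to 0.982). Leaving out a stretch picked as dense was bound to lower the ratio, so this value tests nothing either. In the last megabase of the cluster, from 5.25 Mb, 13 peaks remained.

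Within the dense stretch, strong and weak peaks stood side by side. The highest, at 4772393 to 4772799, reached 8.96, or 69 tags over a local background of 6.81. It was followed by 4699287 to 4699601 with 8.09 and 63 tags over 6.91, and by 4748368 to 4748923 with 7.96 and 52 tags over 5.66. Another, at 4863316 to 4863604, had 7.27 and 39 tags over 4.50. These 4 exceeded 94.8% to 98.1% of all peaks of the list in fold enrichment. Near them lay weak peaks such as 4865497 to 4865650, the lowest of the cluster, with 2.92 and 14 tags. In the stretch 9 peaks reached 5 or more. Its local background was 1.03 to 2.48 times the genome-wide one, with a median of 1.68, against 1.23 on the rest of the chromosome. The part of this background in the number of peaks was not tested.

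The tallest member of all clusters stood just beyond the dense stretch. The peak at 4953977 to 4954698 had a fold enrichment of 11.9, 76 tags over 5.46, a −log10 q-value of 53.6 and a width of 722 bp, the widest of the 146. It exceeded 99.6% of the list in fold enrichment. Another strong and more isolated peak lay at 5386171 to 5386404 with 8.15 and 35 tags over 3.42. At the lower end, the peak at 4337710 to 4338066 had 6.52 and 26 tags over 3.14. Thus 6 of the 8 cluster members at 7 or above were on the short arm of chromosome 11, which held 50 of the 146 members. The rest lay in the pericentromeric cluster and on chromosome 14. Of the 68049 GSK2879552 peaks on the numbered chromosomes, X and Y, 4246 were at 7 or above. This was a slightly larger share than the 8 of the 146 members. Neither this difference nor the number on the short arm was tested.

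**Figure D3:**
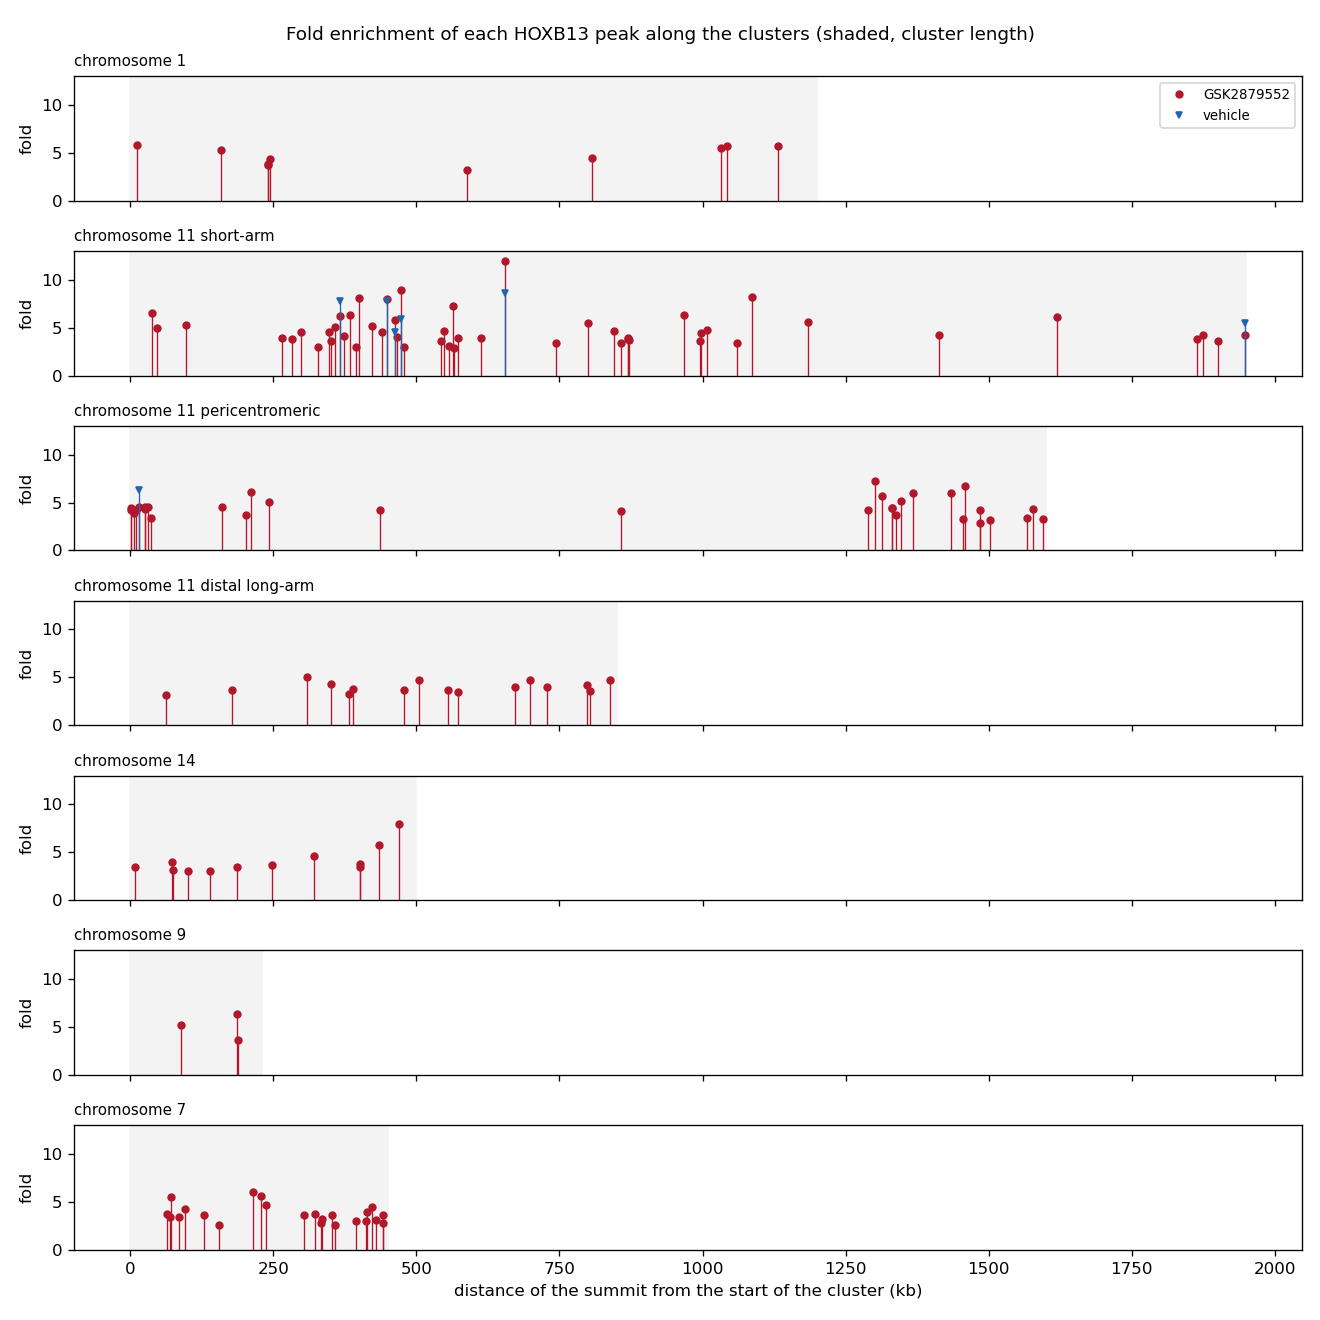
Fold enrichment at the summit (vertical axis) of each HOXB13 peak against its distance from the start of the cluster in kb (horizontal axis), 1 row per cluster, with GSK2879552 peaks as red circles and vehicle peaks as blue triangles. The short-arm row shows 22 GSK2879552 peaks and 4 vehicle peaks between 300 and 600 kb and the highest peak, 11.9, just after them, and the pericentromeric row shows the 900 kb with 2 peaks.

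The pericentromeric cluster of chromosome 11 had peaks at both ends and almost none between. It held 32 GSK2879552 peaks, 20 per Mb (13.7 to 28.2), with a ratio of 0.799 (0.546 to 1.13), and 22 of 77 windows of its length held as few. The first 100 kb contained 9 peaks, none with a fold enrichment above 4.58, at local backgrounds of up to 2.91 times the genome-wide one. A peak-free interval of 3.29 Mb, which ended at 54.9 Mb, stopped 116 kb short of this cluster. Without the first 100 kb the ratio was 0.613 (0.388 to 0.921). That stretch is dense and was chosen after its peaks were seen, so leaving it out was bound to lower the ratio. This value tests nothing. From 55.3 to 56.2 Mb, 900 kb held 2 peaks, and the longest empty stretch, from 55858417 to 56289598, was 431 kb. The last 400 kb then held 17 peaks, 42.5 per Mb, 6 of them with a fold enrichment of at least 5. The strongest was at 56300558 to 56301087 with 7.29, 45 tags over 5.31 and a width of 530 bp. The next was at 56458725 to 56459057 with 6.69. The weakest, at 56484226 to 56484381, had 2.83.

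The distal long-arm cluster of chromosome 11 had the lowest top fold enrichment of the 7 clusters, and its longest gap between summits was 130 kb. Its 16 GSK2879552 peaks came to 18.8 per Mb (10.8 to 30.6), a ratio of 0.752 (0.429 to 1.22). The median fold enrichment was 3.87, the quartiles 3.64 and 4.37, and the highest 5.09, at 123908190 to 123908344. That peak was the only member with at least 5, so the ratio at that threshold was 0.169. The median pileup was 16 tags, against 18 on the rest of the chromosome, and the median width 160 bp against 200 bp. The widest peak, at 124298010 to 124298287, had 278 bp and a fold enrichment of 4.75, and the weakest, at 123663299 to 123663457, had 3.21.

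The clusters on chromosomes 14 and 9 were small and their densities could not be told apart from their surroundings. On chromosome 14, 12 peaks gave 24 per Mb (12.4 to 41.9) against 29.0, a ratio of 0.827 (0.427 to 1.45). The megabase below it held 63 peaks and the megabase above it 27. Its strongest peak, at 20669752 to 20670064, had a fold enrichment of 7.92 and 34 tags over 3.42, while its median was 3.58 and its lowest, at 20300138 to 20300390, 3.01. On chromosome 9, 3 peaks in 0.23 Mb gave 13 per Mb (2.69 to 38.1) against 25.3, a ratio of 0.515 (0.106 to 1.51). These were at 107338797 to 107339080 with a fold enrichment of 5.20, at 107437028 to 107437225 with 6.37 and at 107437668 to 107437819 with 3.66. The flanking megabases held 9 peaks below and 35 above.

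Empty stretches were more common in the clusters than elsewhere on the 5 chromosomes. Of 66 full bins of 100 kb in the clusters, 18 held no GSK2879552 peak, a share of 27.3% (17.0 to 39.6). Outside the clusters it was 1071 of 7191 bins, 14.9% (14.1 to 15.7). Bins with 6 or more peaks made up 10.6% of the cluster bins, 7 in number, and 8.71% of the others. The empty bins lay in 4 of the clusters: 5 on chromosome 1, 5 in the short-arm, 7 in the pericentromeric and 1 in the distal long-arm cluster. The bins of 1 cluster are neighbours, so the interval of their share is too narrow.

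The strength of a typical cluster peak was near that of other peaks. In the GSK2879552 list the median fold enrichment was 4.18 (quartiles 3.61 and 5.09, range 2.56 to 11.9) for the 146 members and 4.22 (3.69 and 5.01) for the 19058 peaks on the rest of the 5 chromosomes. The median −log10 q-value was 5.20 against 5.18, the median width 190 bp against 198 bp and the median pileup 19 tags against 18. A fold enrichment of at least 5 was reached by 38 members, 26.0%, and by 26.6% of all 68049 peaks on chromosomes 1 to 22, X and Y. Between clusters the share ran from 1 of 16 on the distal long arm to 5 of 10 on chromosome 1 and 2 of 3 on chromosome 9, with 17 of 50 on the short arm of chromosome 11. The median local background was 1.33 times the genome-wide value, against 1.24 on the rest of the 5 chromosomes.

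**Figure D4:**
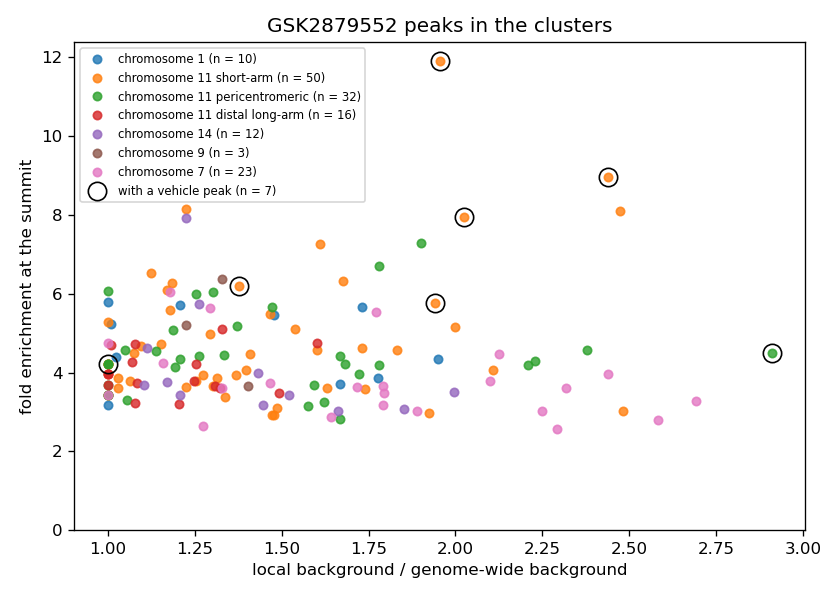
Fold enrichment at the summit (vertical axis) of the 146 GSK2879552 peaks against their local background as a multiple of the genome-wide one (horizontal axis), coloured by cluster, with black rings around the 7 that overlap a vehicle peak. The last 13 peaks of chromosome 7, at 1.64 to 2.69 times the background, stay at or below 4.47, while short-arm peaks at similar backgrounds reach 8.96 and 11.9.

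Vehicle peaks in the clusters were few and all lay on chromosome 11. The short-arm cluster held 6, or 3.08 per Mb (1.13 to 6.70) against 1.52 on the rest of the chromosome, a ratio of 2.03 (0.735 to 4.50). The pericentromeric cluster held 1, and the clusters on chromosomes 1, 7, 9, 14 and the distal long arm held 0. The rest of the chromosome would give 1.53 in the chromosome 1 cluster, 1.29 on the distal long arm and fewer than 1 in the other 3. A count of 0 allows up to 3 peaks, so an absence could not be shown with this list. The commonest local background, taken as the genome-wide one, was 0.443 tags in the vehicle list and 2.79 in the GSK2879552 list, and on chromosomes 1 to 22, X and Y the GSK2879552 list had 19.4 times as many peaks. Total depth is unknown. Peak number, background level and treatment differed together and cannot be told apart.

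Each of the 7 vehicle members shared at least 1 bp with a GSK2879552 peak, against 91.2% of the whole vehicle list. In the other direction, 7 of the 146 cluster peaks of the GSK2879552 list had a vehicle peak, 4.79% (1.95 to 9.63), close to the 4.59% over the whole list. On the short arm of chromosome 11 it was 6 of 50, 12% (4.53 to 24.3). Among members with a fold enrichment of at least 7, 3 of 8 had a vehicle peak, against 38.1% of all such peaks. The clusters were thus near the whole list in both respects. The summits of overlapping peaks lay 13 to 105 bp apart, with a median of 38 bp.

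The strongest vehicle peak coincided with the tallest GSK2879552 peak. At 4954050 to 4954279 it reached 8.60, or 15 tags over 0.860, beside 11.9 and 76 tags over 5.46 in the GSK2879552 list. The vehicle peak at 4748542 to 4748718 had 7.81 and 14 tags over 0.920, beside 7.96 and 52 tags. At 4666360 to 4666468 it had 7.79 and 11 tags over 0.540, beside 6.19 and 29 tags. Peaks enter a list because they exceed their local background, so enrichment in both lists was given at any shared site. Tag counts of the lists are not on the same scale: the genome-wide background was 0.443 tags in the vehicle list and 2.79 in the GSK2879552 list. Divided by that background, the pileup was higher in the vehicle list at all 7 shared sites, with ratios of 1.01 to 2.94. The fold enrichment, in contrast, was higher in the GSK2879552 list at 4 of the 7 sites and lower at 3. These sites were picked as vehicle peaks, and neither difference was tested.

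The other 4 vehicle peaks ranked lower within their list. At 4772463 to 4772638 the vehicle fold enrichment was 5.85 with 11 tags, beside 8.96 with 69 tags. At 4762065 to 4762164 it was 4.55 with 7 tags, beside 5.76 with 36 tags, and at 6248429 to 6248541 it was 5.44 with 7 tags, beside 4.22 with 15 tags. The last of these summits lay 1.56 kb inside the cluster boundary in the GSK2879552 list. The pericentromeric vehicle peak, at 55015194 to 55015293, had 6.28 with 14 tags over 1.39, a background 3.14 times the genome-wide one, beside 4.49 with 40 tags over 8.13.

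The site at 4699287 to 4699601, with 63 GSK2879552 tags the third tallest pileup of the clusters, had no vehicle peak. Neither did the peaks at 5386171, 4863316, 56300558 and 20669752, which had fold enrichments of 8.15, 7.27, 7.29 and 7.92. Lacking a vehicle peak was usual at that strength: only 1616 of the 4246 GSK2879552 peaks at 7 or above, 38.1%, overlapped one. The sites named here thus do not stand out from the list in this respect.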

How the data were processed

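HOXB13 ChIP-seq peaks of LNCaP cells were taken from 2 deposited lists, 1 per treatment. Per the submitters' processing notes, the tools were MACS2 2.1.2, BWA 0.7.2 and SAMtools 0.1.18, on hg19 (GRCh37). Neither input controls nor options for the peak calls are stated in the notes or labels. The authors deposited per peak a score, the fold enrichment (a ratio to the local background), the −log10 p-value, the −log10 q-value and the summit offset. In 100% of peaks the score equals 10 times that q-value term without its decimals. These values describe and rank peaks within a list. At sites shared by the lists they stand side by side, and no difference between the lists was tested.

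A peak belonged to a cluster when its start plus summit offset lay inside the boundaries. Printed intervals count from 1. The rest of a chromosome ran from its first base to its last peak, less all clusters and peak-free intervals of at least 2.5 Mb in the GSK2879552 list. Ratios of densities carry exact conditional (Clopper-Pearson) intervals, the ratio over all clusters an exact Poisson interval of its count, and shares exact binomial intervals, all at 95%. Intervals of medians are exact binomial intervals taken from the ranked values, also at 95%. Pileup and local background were solved from fold enrichment and p-value, with a whole pileup for 100% of peaks within 0.001, and the genome-wide background was the commonest value. Solver, overlap and interval routines were tested on simulated data. Python 3.11.15, scipy 1.17.1 and pandas 2.3.3 were used.

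The clusters, and with them the members, were chosen with earlier results of these data known, and stretches inside clusters were chosen after seeing their peaks. Peaks were named by a rule: vehicle members, and in each cluster the highest, lowest and widest GSK2879552 peak, plus the 10 highest over all. Sequences came from RefSeq tables of GRCh38.p14. No sequence of peaks was read, as no hg19 genome was used.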

Additional observations from a re-analysis of the deposited data

How the results depend on the processing

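Of 108 values computed under other settings, 98 stayed inside the 95% interval of the value reported above and 10 lay outside it. With peaks of fold enrichment of at least 5 the chromosome 7 ratio turned from above to below 1, at 0.981 on 3 peaks, and the ratios of chromosome 1 and of the distal long arm became 0.619 and 0.169, the latter on 1 peak. With a −log10 q-value of at least 5 the distal long-arm ratio was 0.419. Moving all boundaries inwards by 100 kb gave 0.694 over all clusters, 0.541 in the pericentromeric cluster and 0 on chromosome 9, where 0 peaks were left. Moving them outwards gave 0.929 over all clusters, 1.28 on chromosome 14, 0.918 on chromosome 9, 0.968 on the short arm and 1.03 over all clusters in the vehicle list. Other ratios whose interval held 1 also crossed it: chromosome 9 was 1.30 at a fold enrichment of at least 5, chromosome 14 was 1.01 with peak-free intervals kept, and at a −log10 q-value of at least 5 the short arm was 0.987 and the vehicle ratio 1.09. The short arm was 0.979 with boundaries moved inwards. The difference in median fold enrichment went from -0.035 to 0.056 at that q-value. Leaving out the short-arm cluster gave a vehicle ratio of 0.147 on 1 peak. Without its dense stretch, an alternative chosen after seeing the data, the short-arm ratio was 0.678 and that over all clusters 0.742. When overlap had to cover at least 50% of each peak, 0% of the GSK2879552 members had a vehicle peak. No paired analysis was possible because each treatment was 1 list for both lanes. For the same reason no lane could be left out.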
